A study of Homo sapiens with 6 samples.

Results

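The cytosolic ribosomal protein genes encode the protein subunits of the ribosome that works in the cytoplasm. The genes were chosen by symbol alone, without any measured value: human genes named RPL or RPS with a number and the usual suffixes, the stalk genes RPLP0, RPLP1 and RPLP2, and RPSA, with Y-linked copies left out. The rule gave 84 of the 38606 human genes in the count tables, of which 52 belong to the large (60S) subunit and 32 to the small (40S) subunit. 7 of the 84 are paralogs, genes related to a usual copy: RPL3L, RPL7L1, RPL10L, RPL22L1, RPL26L1, RPL39L and RPS27L. Some of them, such as RPL3L and RPL10L, can take the place of the usual copy in particular cells, whereas RPL7L1 is known from the assembly of the large subunit. The other 77 are the usual copies.

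The study measured nuclei from teratomas, tumours with many differentiated tissues that pluripotent cells form after injection. H1 human embryonic stem cells were injected, mixed 1:1 with Matrigel, into the flank of immunodeficient NSG mice, and the flash-frozen tumours gave single-nucleus 3′ RNA libraries with unique molecular identifiers (UMIs, which count molecules). The cells carried the lncPRESS1 locus, a long non-coding RNA gene, in 3 forms: DATG (the label ΔATG; the labels do not describe the sequence change), KO (knockout) and WT (wild type), with 2 libraries each. All 3 groups share the H1 background, the mouse host and the 10x chemistry, while the origin of the paired libraries (a tumour, a clone or an animal each) is not stated, so p-values measure only the spread between these libraries, which may be technical.

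Ribosomal protein messages are among the most abundant in a growing cell, and many begin with a 5′ terminal oligopyrimidine (TOP) tract, a C followed by a run of pyrimidines, through which the mTOR pathway and LARP1 control their translation together. A finished message leaves the nucleus quickly, so a nucleus holds less of it than the whole cell does. In stem cells and in differentiating tissue, the supply of ribosomal proteins is tied to growth, and losing a single subunit can arrest cells through MDM2 and p53.

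The RefSeq promoter table (GRCh38.p14) listed a start for 67 of the 84 genes. A TOP tract was defined as a C with at least 4 pyrimidines after it, on the strand that reads like the message. At the listed start, 47 of the 67 (70.1%) held a TOP tract, against 1404 of 27305 genes in the table (5.14%). Among the usual copies the count was 46 of 62 (74.2%), and among the paralogs only RPL22L1 of 5 held it. The letters CCGGAAG, on either strand, stood within 250 bases before to 50 bases after the start of 24 of 67 (35.8%), against 12.2% of all genes. The windows printed here begin 20 bases before the start and include 15 bases from it, with the TOP tract in capitals, and no capitals where the listed start has none. They are shown in 4 usual-copy and paralog pairs, followed by RPL7L1, so that both kinds can be compared.

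RPL22 (chr1:6199581-6199615, minus strand): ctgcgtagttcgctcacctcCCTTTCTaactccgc
RPL22L1 (chr3:170870181-170870215, minus strand): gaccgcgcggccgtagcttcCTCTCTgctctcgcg
RPL26 (chr17:8383179-8383213, minus strand): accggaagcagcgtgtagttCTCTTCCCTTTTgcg
RPL26L1 (chr5:172958709-172958743, plus strand): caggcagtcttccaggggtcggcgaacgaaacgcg
RPS27 (chr1:153990742-153990776, plus strand): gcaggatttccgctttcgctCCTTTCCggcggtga
RPS27L (chr15:63157463-63157497, minus strand): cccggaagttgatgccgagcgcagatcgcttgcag
RPL10 (chrX:154398357-154398391, plus strand): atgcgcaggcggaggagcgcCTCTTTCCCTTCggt
RPL10L (chr14:46651767-46651801, minus strand): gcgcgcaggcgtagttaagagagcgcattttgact
RPL7L1 (chr6:42879596-42879630, plus strand): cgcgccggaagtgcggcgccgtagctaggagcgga

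The next windows belong to genes at the ends of an uneven pattern in DATG replicate 2 that is described further on, and were chosen after the values were seen. RPL39, RPL36, RPLP2, RPL37A and RPL38 were comparatively high there and held a tract. Of the genes that were comparatively low, RPL19 and RPS15 held none at their listed start, whereas RPL10, printed above with its paralog, held one, so that the tract did not divide the ends. A match describes the letters at a listed start and not its use.

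RPL39 (chrX:119791616-119791650, minus strand): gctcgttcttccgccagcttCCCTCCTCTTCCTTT
RPL36 (chr19:5690275-5690309, plus strand): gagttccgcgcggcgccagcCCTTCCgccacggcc
RPLP2 (chr11:809947-809981, plus strand): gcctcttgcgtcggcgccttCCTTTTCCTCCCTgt
RPL37A (chr2:216498824-216498858, plus strand): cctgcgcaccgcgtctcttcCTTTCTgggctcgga
RPL38 (chr17:74203658-74203692, plus strand): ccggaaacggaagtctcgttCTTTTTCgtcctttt
RPL19 (chr17:39200263-39200297, plus strand): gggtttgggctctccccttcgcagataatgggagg
RPS15 (chr19:1438376-1438410, plus strand): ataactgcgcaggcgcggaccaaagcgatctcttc

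The genes lie on 21 chromosomes, with 12 on chromosome 19, 9 on chromosome 3 and 6 on chromosome 17, and their principal coding messages in GENCODE 29 run 344 to 7686 bases (median 1010.5). A search of the annotation by name found at least 1 pseudogene for 76 of the 84, 1133 in all, with 91 for RPL23A and 74 for RPSA. It found none for RPL3L, RPL10L, RPL39L and RPS27L. Copies named after RPL7L1, RPL22L1 or RPL26L1 were outside the name pattern and were not counted. Reads of a usual copy can therefore be shared with near-identical sequences, and levels of single genes are uncertain to that extent. In 28 of the 84 an annotated snoRNA gene sits inside the gene.

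The 6 libraries held 6504 to 13489 barcodes and 35785812 to 47574535 UMIs. Human nuclei kept after removing mixed and doublet barcodes numbered 10931 and 5793 in DATG, 9281 and 7440 in KO, and 5296 and 11053 in WT, with median UMIs of 2473 and 2623 in DATG, 2526 and 3738 in KO, and 3872.5 and 2447 in WT. DATG replicate 2 stood apart by its mixed barcodes, which hold both species (3649, 35.5%, against 4.75 to 13.2% in the other libraries). Libraries shared 12 to 51 cell barcodes per pair. LNCPRESS1 itself gave 1 and 3 UMIs in DATG, 3 and 0 in KO and 7 and 2 in WT, too few to check the labels. Over whole libraries, markers of pluripotent cells summed to 242 and 420 CPM in DATG, 497 and 327 CPM in KO, and 337 and 320 CPM in WT. CPM is counts per 1000000 UMIs, and 0 to 1 of the 15 markers were at 0 in a library.

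Together the 84 genes made up 2.24% and 0.773% of human UMIs in the DATG libraries, 1.43% and 0.856% in KO, and 0.786% and 1.40% in WT. The highest and the lowest of the 6 values were the 2 DATG libraries. The group means were 1.51 ± 1.04% in DATG, 1.14 ± 0.407% in KO and 1.09 ± 0.437% in WT (SD, n = 2 each). The differences were 0.411 percentage points between DATG and WT, 0.0489 between KO and WT and 0.362 between DATG and KO, all below the spread within DATG. The two-sided exact permutation test over libraries gave p = 1, p = 0.667 and p = 1 for these contrasts, where 2 libraries against 2 cannot give less than 0.333. Nuclei without a single UMI of these genes were 0.00915% and 0.155% in DATG, 0% and 0.0134% in KO, and 0.0189% and 0% in WT. Nearly every nucleus therefore held some of these UMIs, free RNA included, and the libraries differed in the UMIs per nucleus.

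A median nucleus held 36 and 13 UMIs of these genes in DATG, 28 and 28 in KO, and 27 and 33 in WT. By this measure DATG replicate 2 was the lowest library, and the KO replicates had the same median. The ratio of large to small subunit UMIs was 1.51 and 1.76 in DATG, 1.503 and 1.52 in KO, and 1.57 and 1.504 in WT. The sums cover 52 large and 32 small subunit genes, so a ratio above 1 need not mean a higher level per gene. The ratio was highest in DATG replicate 2. The mouse host cells in the same libraries differed the same way: the mouse ribosomal protein genes took 2.33% and 0.556% of mouse UMIs in the DATG libraries, 1.52% and 0.746% in KO, and 0.618% and 1.04% in WT, the same order of libraries within each group. Mitochondrially encoded genes, a measure of cytoplasmic RNA and RNA quality, took 0.495% and 0.522% in DATG, 0.181% and 0.117% in KO, and 0.173% and 0.0808% in WT. The mitochondrial share was high in both DATG libraries, unlike the ribosomal protein share, and its part in the difference between the libraries was not tested.

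**Figure D1:**
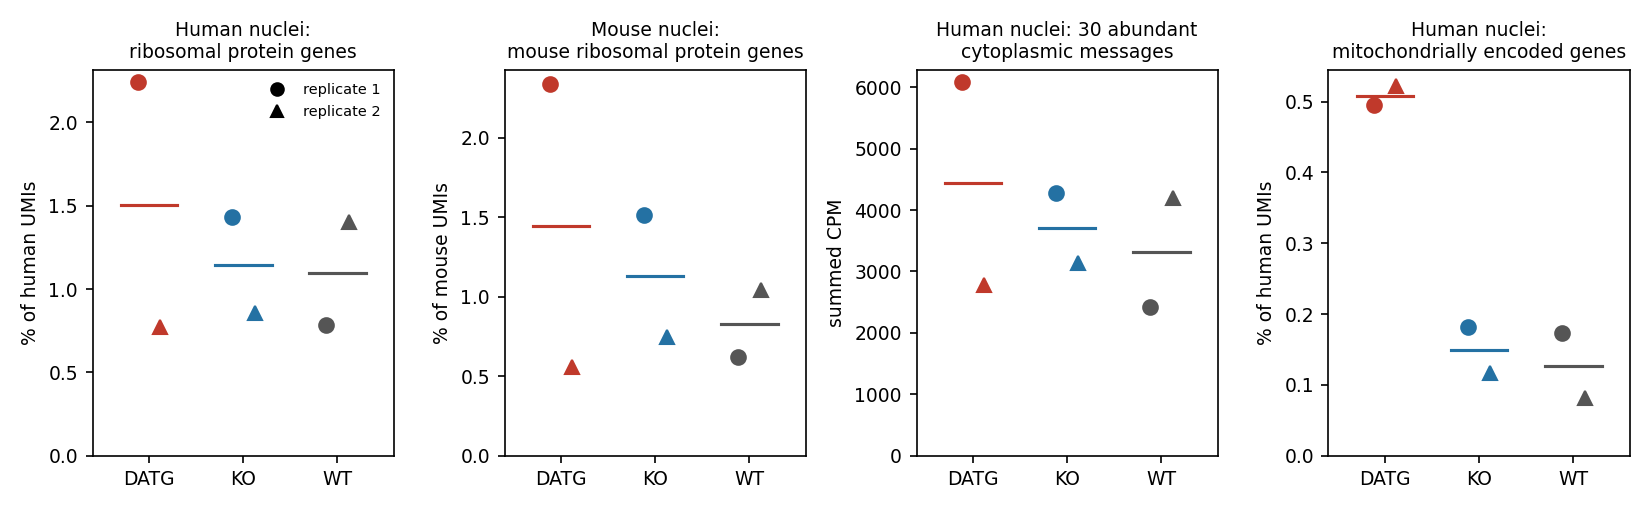
Percent of human UMIs in the 84 human ribosomal protein genes, percent of mouse UMIs in the mouse genes, summed CPM of 30 abundant cytoplasmic messages and percent of mitochondrially encoded UMIs, per library (points, circle replicate 1, triangle replicate 2) with group means (lines) for DATG, KO and WT. The ribosomal protein share spans 2.24% to 0.773% within DATG, while the mitochondrial share is 0.495% and 0.522% in the DATG libraries.

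Between libraries of a group, nearly all genes moved together. Of the 83 genes with enough counts to be tested, 78 were highest in DATG replicate 1, and 46 were lowest in DATG replicate 2, 26 in WT replicate 1, 10 in KO replicate 2 and 1 in DATG replicate 1. DATG replicate 1 exceeded DATG replicate 2 in 82 of 83 genes, KO replicate 1 exceeded KO replicate 2 in 83 of 83, and WT replicate 1 exceeded WT replicate 2 in 4 of 83. The correlation of log2 CPM across the genes was 0.968 to 0.995 between the other libraries and 0.872 to 0.916 between DATG replicate 2 and any other (across genes, which are not independent replicates).

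**Figure D2:**
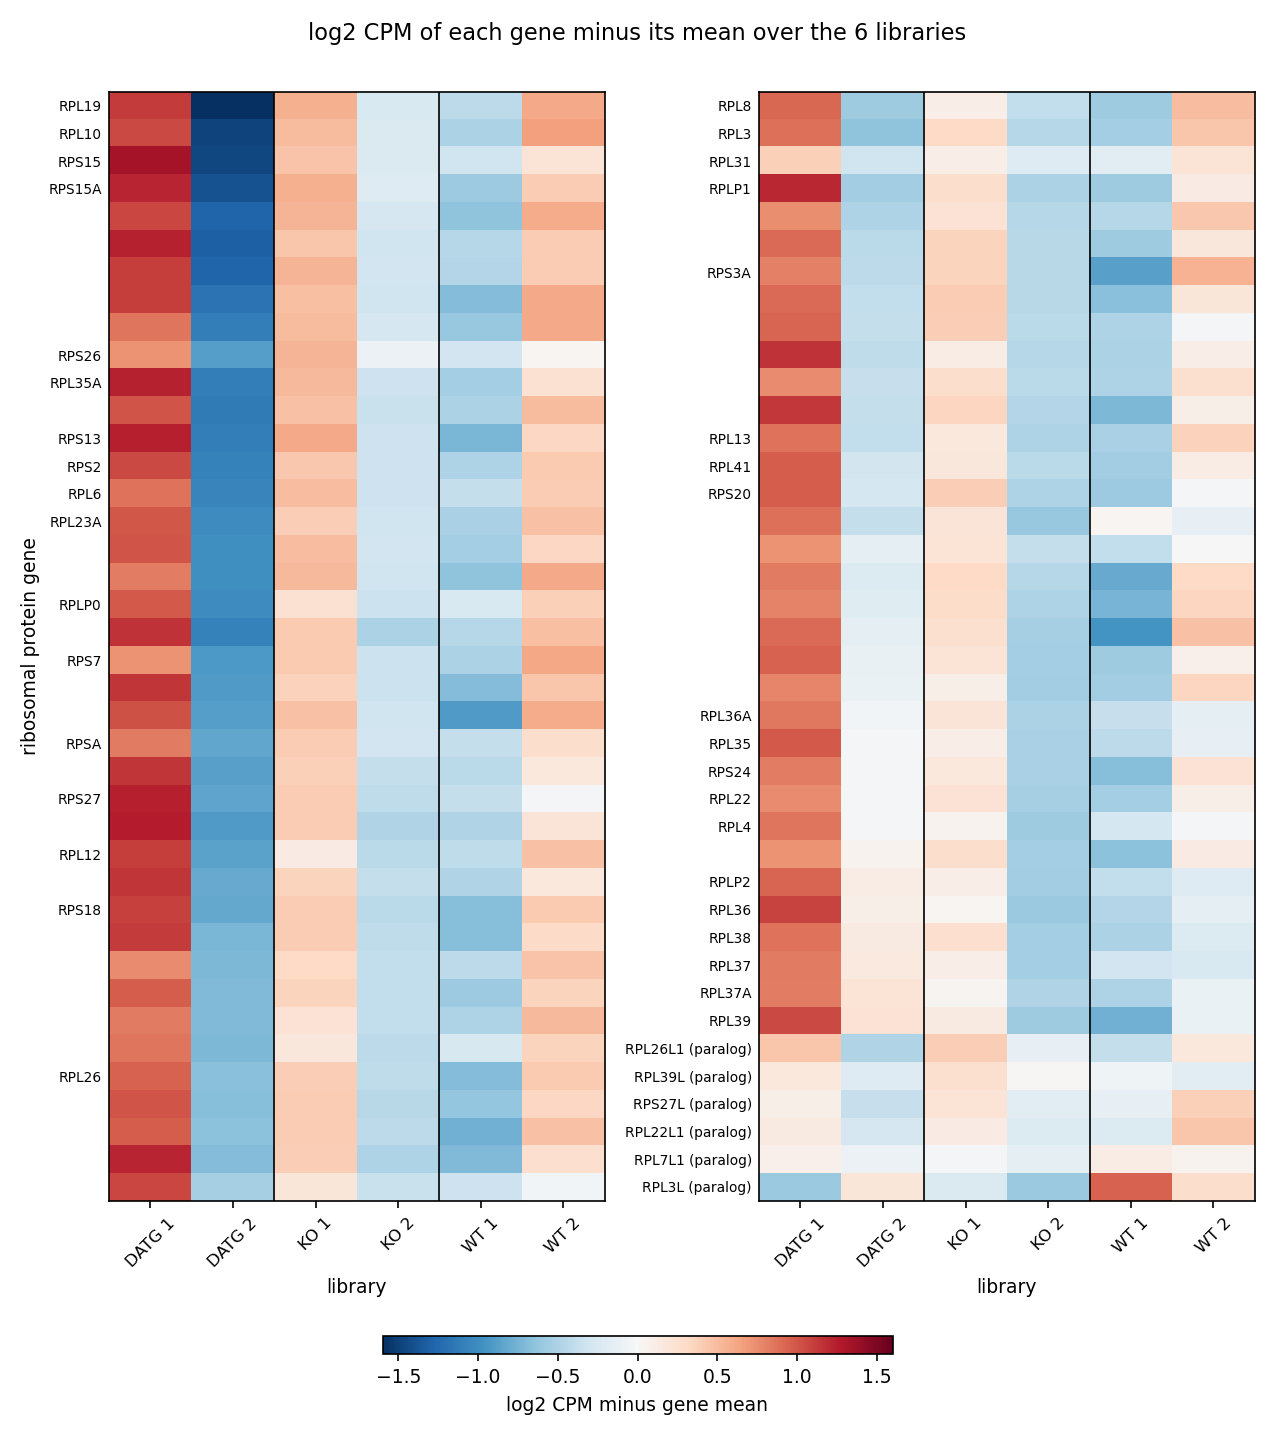
log2 CPM of ribosomal protein genes minus the gene's mean over the 6 libraries (colour scale), genes as rows (those described in the text are labelled) with the usual copies sorted by DATG replicate 2 relative to KO replicate 2 and the paralogs last, libraries as columns in the order DATG, KO, WT. DATG replicate 1 is the reddest column and DATG replicate 2 is blue for the upper genes but slightly above 0 for RPL39 and RPL37A.

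Among the large subunit genes, RPL10, which joins the 60S subunit late and completes it, had 621 and 107 CPM in the DATG libraries, 422 and 253 CPM in KO, and 210 and 467 CPM in WT. RPL3, a core 60S protein near the peptidyl transferase centre, had 418 and 146 CPM in DATG, 282 and 165 CPM in KO, and 156 and 309 CPM in WT. Both genes were highest in DATG replicate 1 and lowest in DATG replicate 2. RPL41, a very short protein of the large subunit, had 559 and 233 CPM in DATG, 322.5 and 212 CPM in KO, and 193 and 310.2 CPM in WT. RPL13 had 530 and 220 CPM in DATG, 327 and 205 CPM in KO, and 202 and 373 CPM in WT, and both were lowest in WT replicate 1.

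The P stalk proteins recruit the translation factors to the ribosome. RPLP1 had 549.7 and 162 CPM in DATG, 290.1 and 168 CPM in KO, and 159.8 and 262 CPM in WT. RPLP0 had 281 and 70.8 CPM in DATG, 169.9 and 112 CPM in KO, and 120.5 and 186 CPM in WT. RPLP2 had 205 and 116 CPM in DATG, 115 and 72.9 CPM in KO, and 81.5 and 93.0 CPM in WT. So RPLP2, unlike its partners RPLP0 and RPLP1, was higher in both DATG libraries than in either WT library.

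Among the small subunit genes, RPS24, a subunit mutated in Diamond-Blackfan anaemia, had 412 and 228 CPM in DATG, 262 and 162 CPM in KO, and 146 and 275 CPM in WT. RPS3A had 384 and 164 CPM in DATG, 282 and 162 CPM in KO, and 121 and 323 CPM in WT. RPSA, a small subunit protein also known as the laminin receptor, had 196 and 61.9 CPM in DATG, 147 and 89.7 CPM in KO, and 84.6 and 135 CPM in WT. For these 3 genes the DATG and WT libraries overlapped. RPS2, at the entry of the message into the small subunit, had 438 and 99.6 CPM in DATG, 284 and 168 CPM in KO, and 150.4 and 283 CPM in WT. Among the largest ranges over the 6 libraries were those of RPS15 (6.91-fold) and RPL19 (6.68-fold). RPS15 had 298.5 and 43.2 CPM in DATG, 164 and 101 CPM in KO, and 95.6 and 139 CPM in WT, and so was highest and lowest in the DATG libraries. The smallest among genes that are not paralogs was that of RPL31 (1.62-fold), with 114 and 70.2 CPM in DATG, 94.3 and 75.8 CPM in KO, and 77.1 and 101 CPM in WT.

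For DATG against WT, edgeR's quasi-likelihood test with Benjamini-Hochberg adjustment called 0 of 83 genes at an adjusted p under 0.05, and 0% of the 26282 human genes tested. 9 of the 83 had an unadjusted p under 0.05, against 2.95% of all genes. DESeq2 called 0 of the 83, against 0.303% of all genes. The median log2 fold change over the 83 was 0.55, against 0.02 over all genes, and 80 of 83 were above 0, against 52.6%. Both DATG libraries lay above both WT libraries for 10 genes (6.70% of all genes did), and below them for 1, RPL3L (18.9%).

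Among the 10 genes were RPL37A, RPL37, RPL35, RPLP2, RPL4, RPL38, RPL36, RPL36A and RPL39. RPL39 sits in the exit tunnel of the large subunit, and had 276 and 155 CPM in DATG, against 77.9 and 123 CPM in WT (log2 fold change 1.22, SE 0.38). RPL36 had 227 and 114 CPM in DATG, against 77.5 and 96.6 CPM in WT (1.09, SE 0.35). RPL38, which in mice affects translation of particular Hox messages, had 101 and 61.3 CPM in DATG, against 39.1 and 47.6 CPM in WT (1.04, SE 0.33). These genes carry the higher fold changes, yet none passed the adjusted test, where the smallest adjusted p among the 83 genes was 1.

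The lowest fold changes in DATG against WT were those of the paralogs RPL3L (-0.66, SE 0.59), RPS27L (-0.13) and RPL22L1 (-0.07), and of RPS7 (0.05). By role, the median log2 fold change was 0.63 for the usual large subunit genes, 0.56 for the usual small subunit genes and -0.00 for the paralogs that could be tested.

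For KO against WT, edgeR called 0 of 83 genes (0% of all genes) and DESeq2 called 0 of 83 (0.659% of all genes). At an unadjusted p under 0.05 there were 0 of the 83, against 4.97% of all genes. The median log2 fold change was 0.08, against 0.01 over all genes, and 61 of 83 were above 0, against 51.3%. Both KO libraries lay above both WT libraries for 1 gene, the paralog RPL39L (20.1% of all genes), and below them for 2, the paralogs RPL7L1 and RPL3L (24.2%). Among the highest fold changes were those of the small subunit genes RPS26 (0.40), RPS13 (0.31) and RPS20 (0.30). RPS13 had 143 and 74.9 CPM in KO, against 57.0 and 119 CPM in WT, which overlap. The lowest were those of RPL3L (-1.02), RPL12 (-0.21), RPL22L1 (-0.18) and RPL8 (-0.17). The large subunit median was 0.08, the small subunit median 0.10 and the paralog median -0.12. This comparison and DATG against WT share the WT libraries.

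For DATG against KO, edgeR called 0 of 83 genes (0% of all genes), with a smallest adjusted p of 0.695, and DESeq2 called 0 of 83 (0.349% of all genes). At an unadjusted p under 0.05 there were 7, against 5.68% of all genes. The median log2 fold change was 0.46, against 0.03, and 80 of 83 were above 0, against 52.2%. Both DATG libraries lay above both KO libraries for 6 genes, among them RPL37A, RPL37, RPLP2, RPL36 and RPL39 (15.6% of all genes), and below them for 0 (25%). Among the highest fold changes were those of RPL36 (1.03), RPL39 (0.99) and RPLP2 (0.89), and the lowest were those of RPS27L (-0.04), RPL39L (-0.03), RPS26 (-0.03) and RPL26L1 (0.01). The large subunit median was 0.53, the small subunit median 0.44 and the paralog median 0.06.

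The medians of the contrasts with DATG rested on DATG replicate 1. Without that library, the median log2 fold change was -0.42 in DATG against WT and -0.42 in DATG against KO. The DATG group is then a single library, assumed to vary like the other groups. In that fit RPS15 was called lower in DATG than in KO, where 14.1% of all genes were called lower, and 0 of the 83 were called in DATG against WT, where 6.21% of all genes were called lower. Without DATG replicate 2 the medians were 1.06 and 1.03, with 0 of the 83 called in either contrast. Other libraries moved the medians too, with no gene called: DATG against WT gave 0.14 without WT replicate 1 and 1.06 without WT replicate 2, and DATG against KO gave 0.81 without KO replicate 1 and 0.18 without KO replicate 2. KO against WT gave -0.27 and 0.35 without KO replicates 1 and 2, and -0.26 and 0.55 without WT replicates 1 and 2. The biological coefficient of variation was 38.5% over all 6 libraries and 24.3% when either 1 of the DATG libraries was left out.

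**Figure D3:**
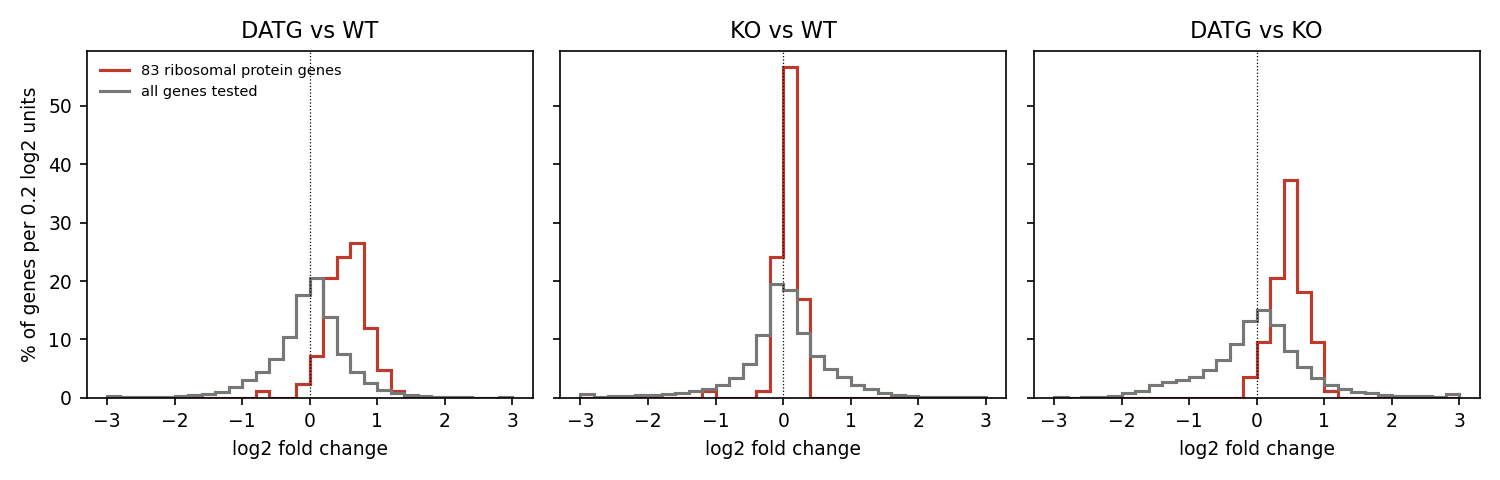
Distribution of log2 fold changes (x axis) as percent of genes per 0.2 log2 units (y axis) for the 83 ribosomal protein genes (red) and all tested genes (grey) in DATG vs WT, KO vs WT and DATG vs KO. The red curve is right of 0 in the contrasts with DATG (medians 0.55 and 0.46) and near it in KO vs WT (0.08), and values past the axis end are in the end bins.

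The nuclei were clustered, and clusters that received the same name from markers were joined. This gave 20 populations, of which 11 were named from markers and 9 are called by their leading genes. Joined clusters can differ in library makeup. Among mesenchyme-like nuclei, a cluster of 6816 had 3256 from DATG replicate 1, and another of 838 had 537 from DATG replicate 2. Contrasts within that class therefore still compare different mixes of clusters. The ribosomal protein and mitochondrial genes were left out of the clustering. In the 11 populations with at least 20 nuclei in every library, DATG replicate 1 was the highest library in 11 of 11 and DATG replicate 2 the lowest in 8 of 11. In mesenchyme-like nuclei the share was 2.03% and 0.460% in DATG, 1.41% and 0.896% in KO, and 0.700% and 1.37% in WT. In neural progenitor-like nuclei it was 2.39% and 0.709% in DATG, 1.58% and 0.872% in KO, and 1.08% and 1.23% in WT. In neuron-like nuclei it was 1.65% and 0.423% in DATG, 1.11% and 0.661% in KO, and 0.647% and 1.12% in WT. The order of the libraries in mesenchyme-like nuclei was that of the whole teratoma, and in all 3 classes DATG replicate 1 was highest and DATG replicate 2 lowest.

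By pairs of libraries, DATG replicate 1 was above WT replicate 1 in 16 of 16 populations, and DATG replicate 2 was above WT replicate 2 in 2 of 16. KO replicate 1 was above WT replicate 1 in 15 of 15, and KO replicate 2 was above WT replicate 2 in 1 of 18. So the direction of a contrast depended on the libraries set side by side. Within a group, KO replicate 1 exceeded KO replicate 2 in 16 of 16 populations, and WT replicate 2 exceeded WT replicate 1 in 16 of 17.

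The globin-led population had the highest share in all 6 libraries. The cluster led by HBE1 and HBG2, embryonic and fetal globin genes, had 3199 nuclei and a share of 6.56% and 3.61% in DATG, 4.50% and 3.57% in KO, and 4.22% and 3.37% in WT, which is 2.40 to 5.37 times that of its whole library. The markers did not name this cluster, and its leading genes also included HSPA1A, HSPA1B and HSPA6. Of 16 neural progenitor markers, 12 stood at 2-fold or more above the other clusters, as did 6 hepatocyte markers. Its nuclei were shallow, with a median of 742 to 1257 UMIs per library. Their mitochondrial share was 1.499% and 1.17% in DATG, 0.457% and 0.596% in KO, and 1.05% and 0.161% in WT, above that of the whole library in all 6. The cluster led by SI and TMEM45B reached 6.37% in the 72 nuclei of DATG replicate 1 and had 1.33% in DATG replicate 2, 0.897% in KO replicate 2, and 0.729% and 1.21% in WT. The cluster led by MIR122HG and HPAT5 had 5.37% (27 nuclei) and 1.24% in DATG, 1.00% and 0.772% in KO, and 0.954% and 1.48% in WT. In that cluster 12 of 14 hepatocyte markers and 10 pluripotent markers stood at 2-fold or more above the other clusters. The part of low totals and of the mitochondrial share in the globin-led values was not tested.

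**Figure D4:**
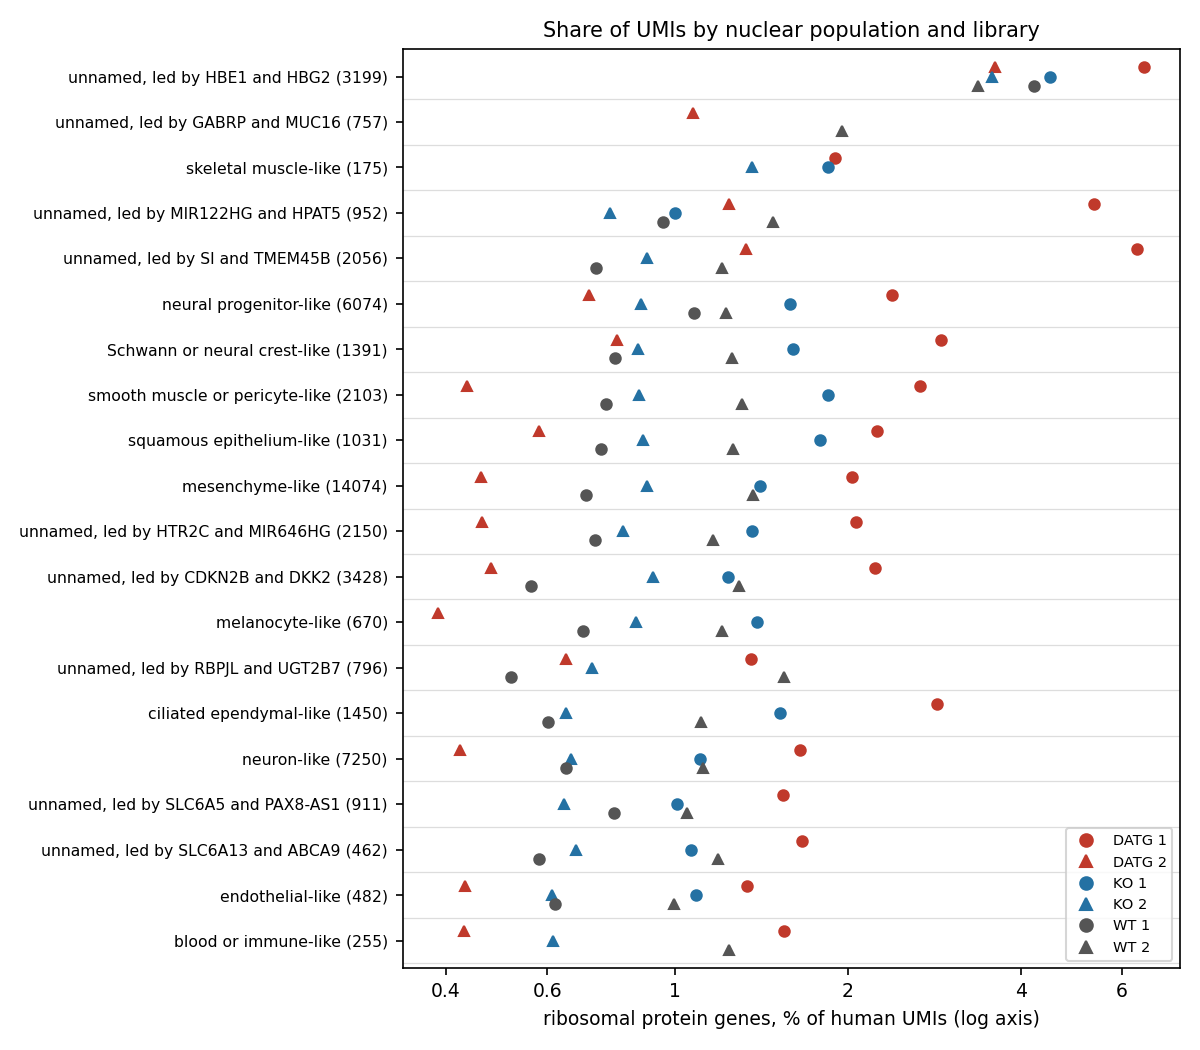
Percent of human UMIs in ribosomal protein genes (x axis, log scale) for each nuclear population (rows, number of nuclei in brackets) in each library (red DATG, blue KO, grey WT, circle replicate 1, triangle replicate 2). The cluster led by HBE1 and HBG2 lies at 3.37% to 6.56% in every library, and DATG replicate 1 is the rightmost point of most other rows.

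Within mesenchyme-like, neural progenitor-like, neuron-like and smooth muscle or pericyte-like nuclei, edgeR and DESeq2 each called 0 ribosomal protein genes in every contrast. DESeq2 called 0.5%, 0.16%, 0.0216% and 0.0107% of all genes in those classes, in that order, in DATG against WT, 0.606%, 0.0254%, 0.00616% and 0% in KO against WT, and 0.0596%, 0.0159%, 0.0123% and 0.00358% in DATG against KO. edgeR called 0% of all genes in each, except 0.0164% in DATG against WT in smooth muscle or pericyte-like nuclei and 0.00528% in KO against WT in mesenchyme-like nuclei. In DATG against WT the median log2 fold changes were 0.28, 0.50, 0.34 and 0.83 in the 4 classes in that order, with 0, 8, 3 and 4 genes at an unadjusted p under 0.05, against 4.54%, 4.4%, 2.43% and 3.47% of all genes. In KO against WT they were 0.11, 0.10, -0.02 and 0.38, with 0 such genes in each, against 6.27%, 1.96%, 1.98% and 4.25% of all genes. In DATG against KO they were 0.19, 0.40, 0.35 and 0.41, with 0, 3, 1 and 0, against 3.74%, 3.45%, 2.97% and 3.18% of all genes. The classes held 993, 301, 295 and 58 nuclei in DATG replicate 2, in the same order. The smooth muscle or pericyte-like values thus rest on few nuclei there, with 614 UMIs of these genes.

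Without DATG replicate 1, which again leaves a single DATG library, RPS15 was called lower in DATG than in WT within mesenchyme-like nuclei (1.68% of all genes called lower) and within neural progenitor-like nuclei (0.193%). Against KO, RPL19, RPL35A, RPL6, RPS15, RPS15A and RPS27 were called lower within mesenchyme-like nuclei (6.67%), and RPL19, RPLP0, RPS15 and RPS15A within neural progenitor-like nuclei (2.05%). These calls set DATG replicate 2 alone against KO or WT, and were absent with both DATG libraries.

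Levels of the usual copies in DATG replicate 2 were uneven among themselves, as the lower correlation with the other libraries shows. Relative to KO replicate 2, RPL19 stood at a log2 ratio of -1.38, RPL10 at -1.24, RPS15 at -1.23 and RPS15A at -1.18, whereas RPL39 stood at 0.80, and RPL37A and RPL37 at 0.70 each. These last 3 genes were also above both WT and both KO libraries in each DATG library. Human UMIs in barcodes called mouse, used as a measure of free RNA, showed the same order with r = 0.87 over 77 genes. The mouse orthologs in mouse nuclei of the same 2 libraries gave r = 0.20 over 76 genes. Within cell classes r was 0.94 in mesenchyme-like, 0.93 in neural progenitor-like, 0.91 in neuron-like and 0.70 in smooth muscle or pericyte-like nuclei. Each class is a part of the human nuclei it is set against, so a high r is partly built in. For WT replicate 2 relative to KO replicate 2, the class values were 0.95, 0.84, 0.89 and 0.76 in that order. The class values thus do not show separately that the pattern recurs in each class. Every r here sets the same 2 libraries on both axes and is given as a description.

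**Figure D5:**
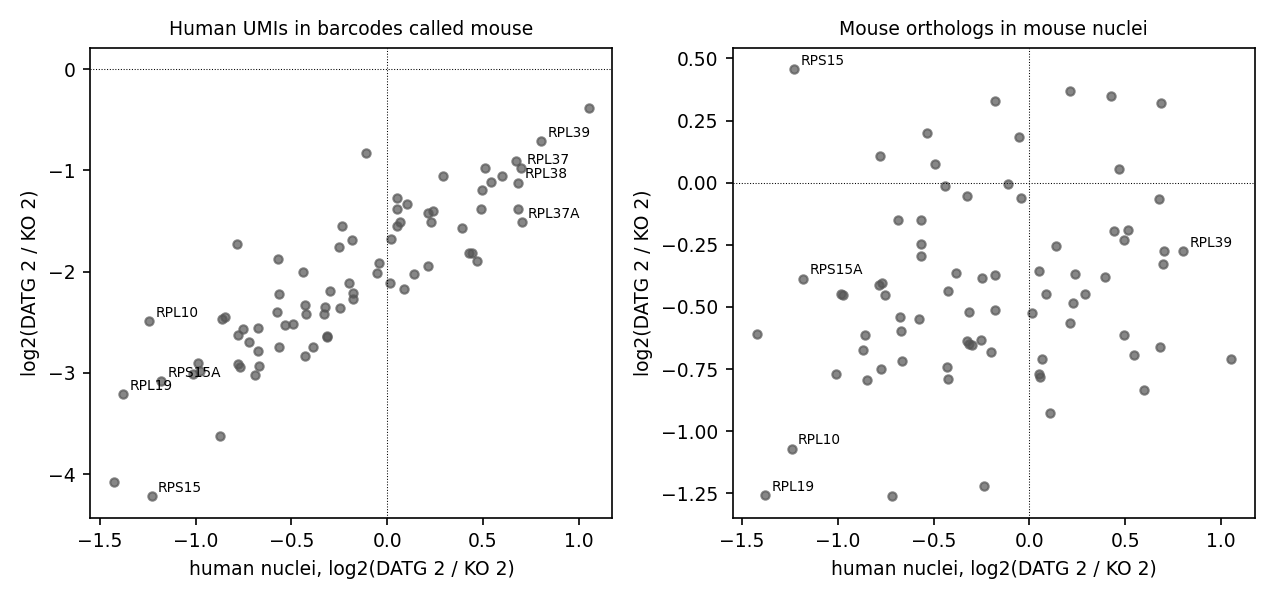
Each point is a usual-copy gene, with the log2 ratio of DATG replicate 2 to KO replicate 2 in human nuclei (x axis) against the same ratio for human UMIs in barcodes called mouse (left, y axis) and for the mouse ortholog in mouse nuclei (right, y axis). The points follow a line on the left (r = 0.87) and scatter on the right (r = 0.20), with RPS15 and RPL19 toward the low end and RPL39 toward the high end on the left.

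Free RNA was measured from the human UMIs in barcodes called mouse, from cells that should hold no human gene, although the 2 species' ribosomal protein genes are alike and some reads may be given to the wrong species. Ribosomal protein genes were 9.67% and 1.82% of those UMIs in DATG, 10.9% and 7.51% in KO, and 4.08% and 9.58% in WT, above the share in human nuclei of every library. A mouse barcode held 29.3 and 4.79 of their UMIs on average in DATG, 20.4 and 20.2 in KO, and 18.0 and 25.4 in WT. That is 39.2% and 15.2% of the amount in a human barcode in DATG, 41.8% and 48.4% in KO, and 37.6% and 57.0% in WT. The usual copies were enriched in these barcodes by a median of 4.41 times (2.37 to 5.47), while of the paralogs RPL7L1 stood at 1.29, RPL39L at 1.32, RPS27L at 1.69, RPL22L1 at 2.66 and RPL26L1 at 6.01. The paralogs did not lie to one side of the usual copies, and their values rest on 4 to 25 UMIs each. The part of free RNA in the differences between libraries was not tested.

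The share was highest in the shallowest nuclei. In nuclei of 500 to under 1000 UMIs it was 4.43% and 1.73% in DATG, 3.54% and 3.82% in KO, and 3.30% and 4.25% in WT, and in nuclei of 4000 to under 8000 UMIs it was 2.21% and 0.620% in DATG, 1.38% and 0.764% in KO, and 0.684% and 0.997% in WT. In nuclei of 8000 UMIs or more it was 3.14% and 0.892% in DATG, 1.15% and 0.669% in KO, and 0.669% and 1.10% in WT. The share was thus higher again in the deepest nuclei of both DATG libraries and of WT replicate 2, and did not fall steadily with depth. In the shallow nuclei, the mean counts were 33.0 and 13.2 UMIs per nucleus in DATG, 27.0 and 27.5 in KO, and 23.5 and 31.5 in WT. In nuclei of 4000 to under 8000 UMIs the means were 117 and 33.9 in DATG, 73.1 and 41.7 in KO, and 38.0 and 52.2 in WT. Compared with those nuclei, a shallow nucleus thus held fewer of these UMIs on average, but a larger share. In nuclei with at least 1% mitochondrial UMIs the share was 4.68% and 1.68% in DATG, 4.60% and 2.92% in KO, and 2.32% and 6.22% in WT.

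Among the paralogs with enough counts, RPL7L1 and RPL39L varied least over the libraries. RPL7L1 had 43.8 and 38.8 CPM in DATG, 40.7 and 37.3 CPM in KO, and 44.8 and 42.9 CPM in WT, a 1.20-fold range. RPL39L, which in mice is known from male germ cells, had 8.98 and 6.93 CPM in DATG, 9.56 and 8.13 CPM in KO, and 7.66 and 7.07 CPM in WT, a 1.38-fold range. RPS27L, a p53 target, had 40.9 and 29.7 CPM in DATG, 44.8 and 33.9 CPM in KO, and 35.1 and 49.9 CPM in WT. None of these 3 genes was highest in DATG replicate 1. RPL22L1 had 20.4 and 15.3 CPM in DATG, 20.2 and 15.9 CPM in KO, and 15.9 and 25.3 CPM in WT, a 1.65-fold range, close to that of the usual copy RPL31 (1.62-fold). RPL26L1 had 11.5 and 6.06 CPM in DATG, 11.1 and 7.77 CPM in KO, and 6.50 and 9.50 CPM in WT, a 1.90-fold range, and like most usual copies it was highest in DATG replicate 1 and lowest in DATG replicate 2.

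RPL3L, the striated muscle form of RPL3, gave 8 and 9 UMIs in DATG, 9 and 8 in KO, and 21 and 14 in WT. RPL10L, known from testis, gave 0 in all libraries except 2 UMIs in WT replicate 1 and could not be tested. These counts are too low to describe a pattern over libraries. In the 3 libraries with at least 20 skeletal muscle-like nuclei (DATG replicate 1 and both KO libraries), RPL3L gave 0 UMIs beside 285 of RPL3. This allows a share of up to 1.29% of the pair (exact Clopper-Pearson, counting error only).

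Of the summed UMIs of a paralog and the usual copy it is named after, RPL22L1 was 9.73% and 12.1% in DATG, 13.3% and 16.9% in KO, and 17.1% and 17.3% in WT. RPL39L was 3.15% and 4.28% in DATG, 6.11% and 8.38% in KO, and 8.95% and 5.42% in WT. RPS27L was 11.7% and 29.1% in DATG, 20.6% and 25.7% in KO, and 26.1% and 28.1% in WT. RPL26L1 was 3.84% and 6.04% in DATG, 5.34% and 6.47% in KO, and 6.55% and 4.54% in WT. RPL7L1 was 20.05% and 31.4% in DATG, 24.9% and 34.3% in KO, and 44.4% and 26.0% in WT. The DATG libraries lay below all KO and WT libraries for RPL22L1 and RPL39L, and overlapped them for RPS27L, RPL26L1 and RPL7L1. These shares move with the level of the usual copy: in DATG against WT the log2 fold change was -0.07 for RPL22L1 and 0.73 for RPL22, and 0.26 for RPL39L and 1.22 for RPL39, none of which passed the test.

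By population, the RPL22L1 share was 22.1% in skeletal muscle-like nuclei (19.0 to 28.1% over 3 libraries) and 10.1% in neuron-like nuclei (7.53 to 13.9% over 6 libraries). The level of RPL22L1 itself was 43.0 CPM in skeletal muscle-like nuclei (39.9 to 45.02 CPM over 3 libraries), against 10.2 CPM in neuron-like nuclei (6.36 to 12.4 CPM over 6 libraries). These populations draw on different mixes of libraries, and the ranges over libraries did not overlap. The skeletal muscle-like value rests on 33 UMIs and on no WT library. The level was higher still, 63.7 CPM, in the globin-led cluster, where the ribosomal protein genes as a whole were high. The RPL22L1 share was 13.8% there, between the skeletal muscle-like and neuron-like shares. Other populations went further in share, with 24.4% in the cluster led by SLC6A13 and ABCA9 and 8.53% in that led by GABRP and MUC16. Those shares rest on 44 and 47 UMIs of RPL22L1.

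Over 105 population-by-library sums, among the genes with a level most like the summed ribosomal proteins, by Pearson correlation of log2 CPM, were RACK1 (0.94), a 40S-bound scaffold, EEF1G (0.93), NACA (0.93), MIF (0.92), GAPDH (0.91), HSPA8 (0.89), ACTG1 (0.89), SLC25A6 (0.88) and EEF1A1 (0.88), out of 8985 genes. The points share libraries and depth, so this is a description. Among the 84 genes themselves RPS18 was closest to the sum (0.98) and the paralogs lay between -0.09 and 0.57.

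Other genes of the pathway and of RNA state were taken from lists chosen with earlier results of these data known, and edgeR called 0 genes of each list in every contrast. The 20 translation factors with a TOP message summed to 3560 and 2769 CPM in DATG, 2488 and 1958 CPM in KO, and 1997 and 2702 CPM in WT. Their median log2 fold change was 0.37 in DATG against WT, -0.11 in KO against WT and 0.43 in DATG against KO. In that order, 2, 0 and 4 genes had an unadjusted p under 0.05 by edgeR, against 2.95%, 4.97% and 5.68% of all genes. DESeq2 called 0, against 0.303%, 0.659% and 0.349% of all genes. Among them EEF1A1, the elongation factor that delivers aminoacyl tRNA, had 1002 and 574 CPM in DATG, 436 and 309 CPM in KO, and 336 and 477 CPM in WT. Both DATG libraries were thus above all others for EEF1A1, with an unadjusted p of 0.0175 against WT by edgeR.

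The 30 abundant cytoplasmic messages summed to 6093 and 2785 CPM in DATG, 4283 and 3134 CPM in KO, and 2424 and 4195 CPM in WT, with DATG replicate 1 highest. The 38 ribosome biogenesis factors, which assemble the subunits, summed to 1124 and 1320 CPM in DATG, 1297 and 1125 CPM in KO, and 1326 and 1261 CPM in WT. Unlike the ribosomal proteins they were not highest in DATG replicate 1. The 78 mitochondrial ribosomal proteins summed to 1988 and 1643 CPM in DATG, 2022 and 1692 CPM in KO, and 1796 and 1991 CPM in WT, a narrow range. The lists of snoRNA hosts, TOP and ribosome regulators, p53 surveillance, immediate early and heat shock genes had medians of 0.01, 0.03, 0.06, 0.26 and -0.13 in DATG against WT, with 0, 0, 0, 1 and 0 genes at an unadjusted p under 0.05 (DESeq2 calls numbered 0). Of the 10 transcripts listed as nuclear retained the median was 0.15, with 2 at an unadjusted p under 0.05 (DESeq2 calls numbered 1). Those 2 were NORAD (0.997) and MEG3 (-3.57), which went in opposite directions. Whether the listed transcripts are retained in these nuclei was not tested. Over all genes in this contrast, 2.95% had an unadjusted p under 0.05 by edgeR and 0.303% were called by DESeq2.

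The 13 mitochondrially encoded genes had a median log2 fold change of 2.51 in DATG against WT, 0.26 in KO against WT and 2.22 in DATG against KO. All 13 had an unadjusted p under 0.05 by edgeR in both contrasts with DATG, against 2.95% (WT) and 5.68% (KO) of all genes. Both DATG libraries were above both WT and both KO libraries for 13 of 13, against 6.7% and 15.6% of all genes. edgeR called 0 of 13 (0% of all genes), whereas DESeq2 called 9 against WT (0.303% of all genes) and 8 against KO (0.349%).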

How the data were processed

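UMIs per gene and barcode had been counted by Cell Ranger (8.0.1 in the submitters' processing notes, 8.0.0 per the file headers) on GRCh38 for human genes, and the authors deposited the raw counts. Human barcodes (at least 500 UMIs, 300 genes and 90 percent human UMIs) were kept, and those nearest to simulated doublets were removed at 0.8 percent per 1000 nuclei. Nuclei were clustered in scanpy 1.11.5 and clusters named from at least 3 markers. Counts summed per library, or per library and class, were tested with edgeR 4.0.16 (TMM, filterByExpr, robust quasi-likelihood, all 6 libraries in 1 model) and, as an alternative, DESeq2 1.42.0, with Benjamini-Hochberg adjustment over all genes. The edgeR fit was tried on simulated counts, for KO against WT only. Intervals (95 percent, Clopper-Pearson) cover counting error only. Members named are the 8 with the highest mean CPM, the 4 highest and 4 lowest fold changes of each contrast, the 3 largest and 3 smallest ranges over libraries, the paralogs, RPSA and the stalk genes. Some genes that these rules pick are not reported here. Of the other lists, the 3 smallest unadjusted p per comparison could be named. Members and lists were chosen with earlier results of these data known. Equal replicate numbers were not treated as pairs, because the labels state no pairing. The deviations of replicate 1 correlated at 0.48 for DATG and KO, -0.11 for DATG and WT, and 0.14 for KO and WT. Whether DATG and KO libraries of the same number shared a batch was not tested.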

Additional observations from a re-analysis of the deposited data

How the results depend on the processing

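Other normalizations (RLE, library totals only), no filter, DESeq2, only the libraries of the 2 groups, doublets kept, at least 1000 UMIs, and leaving out the shallow globin-led cluster (chosen after seeing the data) left 0 of 83 genes called in every contrast of the whole teratoma. With library totals only, the median of all genes in DATG against WT moved to -0.12 and that of the ribosomal protein genes to 0.44. Counts over all genes were less stable: DESeq2 called 87, 171 and 81 genes in DATG against WT, KO against WT and DATG against KO, and KO against WT gave 517 with its own 4 libraries only.

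With the replicate block, which the labels do not support as a pairing, 0 genes were called and the median log2 fold change was 0.35, -0.02 and 0.40 in those contrasts. RPS7 in DATG against WT turned to -0.045 with library totals only and -0.087 with the replicate block, RPL26L1 in DATG against KO to -0.10 and -0.0042, and RPL39L in DATG against KO to 0.023 with doublets kept. The cause was not tested.

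Leaving out 1 library at a time, the median ran from -0.42 to 1.06 in DATG against WT, from -0.27 to 0.55 in KO against WT and from -0.42 to 1.03 in DATG against KO. Within classes it ran, in DATG against WT and against KO, from -0.96 to 0.95 and -1.05 to 0.82 in mesenchyme-like, -0.69 to 1.05 and -0.73 to 0.98 in neural progenitor-like, -0.998 to 0.95 and -1.01 to 0.94 in neuron-like, and -1.38 to 1.39 and -1.63 to 1.01 in smooth muscle or pericyte-like nuclei. Called genes ran from 0 to 1 in DATG against KO, and within mesenchyme-like and neural progenitor-like nuclei from 0 to 1 and 0 to 1 in DATG against WT and from 0 to 6 and 0 to 4 in DATG against KO, always by the fit without DATG replicate 1. Over all genes, that fit called 2070 (DATG against WT), 636 (KO against WT) and 6207 (DATG against KO), and the fit without DATG replicate 2 called 77, 594 and 3.

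Single genes that changed sign ran over these fits from -0.38 to 0.17 (RPS27L), -0.38 to 0.33 (RPL22L1) and -0.89 to 0.76 (RPS7) in DATG against WT; from -0.15 to 0.97 (RPS13), -0.13 to 0.63 (RPS20), -0.59 to 0.33 (RPL12), -0.49 to 0.22 (RPL22L1) and -0.61 to 0.49 (RPL8) in KO against WT; and from -0.20 to 0.12 (RPS27L), -0.15 to 0.080 (RPL39L), -0.93 to 0.53 (RPS26) and -0.43 to 0.35 (RPL26L1) in DATG against KO.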
